A study of Mus musculus with 4 samples.

Results

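The genes described here are 49 developmental homeobox genes that lie outside the Hox clusters, of 21887 protein-coding genes placed on the main chromosomes. They were chosen by name, and the peaks counted for each are those overlapping its body or 10 kb on either side, its locus. Open chromatin was measured by ATAC-seq, in which a transposase inserts sequencing adapters into accessible DNA, in mouse embryonic stem (mES) cells of 2 genotypes with 2 libraries each: wt, and Hox-/-, which per the series title lack all Hox function. All cells were grown in medium with 10% serum, 100 ng/ml leukaemia inhibitory factor (LIF), 3 µM of the GSK-3 inhibitor CHIR99021 and 1 µM of the MEK inhibitor PD0325901. The labels name neither a strain nor a parental line, nor whether the Hox-/- cells are 1 clone or the replicates separate cultures, so the spread between replicates may be technical.

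Homeobox genes encode transcription factors that bind DNA through a homeodomain. Those outside the Hox clusters pattern the forebrain, the eye, the limb, the face, the heart and the endoderm, and most are silent or barely expressed in embryonic stem cells, where many of their CpG-rich promoters are known to carry activating and Polycomb marks together. The 49 genes fall into 6 groups: 24 genes of the NKL subclass (among them Dlx, Nkx, Msx and En), 6 of the HOXL subclass outside the clusters (such as Gbx2 and Pdx1), 6 LIM genes (Lhx and Isl), 6 PRD genes (such as Otx1 and Pitx1), 2 SINE genes (Six2 and Six3) and 5 TALE genes (Irx).

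Inside the spans of the 4 Hox clusters 178 and 181 peaks were listed in the wt libraries, against 2 and 1 in Hox-/-, as the genotype labels say. List lengths were 213705 (wt replicate 1), 216795 (wt replicate 2), 191704 (Hox-/- replicate 1) and 200214 (Hox-/- replicate 2), and the median −log10 p of a peak was 15.7 in Hox-/- replicate 1 and 20, 19.8 and 19.0 in wt replicates 1 and 2 and Hox-/- replicate 2. Read depth is unknown, so a peak's strength is given as its rank by −log10 p within its own library, rank 1 being the strongest, and a strong peak is 1 of the 50000 best ranked. The cells were checked at marker genes. All 10 stem cell markers, including Sox2, Nanog and Zfp42, had a peak within 1 kb of a gene end in each library, and 6 or 7 of them a strong one. End peaks were also common at markers of other cell types. They were listed for 4 to 6 of 8 fibroblast feeder markers (strong at 1, Col1a1, with none at Col3a1 and Postn), 5 or 6 of 6 trophoblast markers (strong at 1), 4 or 5 of 6 primitive endoderm markers (strong at 0 or 1) and 5 of 5 neural markers (strong at 0 to 2).

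Promoter windows (250 bases before to 50 after a transcription start) were taken from RefSeq, build GRCm38.p6, for the 35 homeobox genes that matched; Lhx2 has 2 of the 36 windows. The 6 below show the range of what was found on them: strong peaks in all libraries (Isl2 and Pdx1), ranks that differ between genotypes (Msx1 and Emx1) and no peak at all (Six3 and Vax1). Capitals mark the 4 motifs searched on both strands, TAATTA (bound by many homeodomains), GGGCGG (a GC box), CCAAT and TATAAA, and neighbouring copies can overlap.
Isl2, chr9:55540899-55541198 (+ strand): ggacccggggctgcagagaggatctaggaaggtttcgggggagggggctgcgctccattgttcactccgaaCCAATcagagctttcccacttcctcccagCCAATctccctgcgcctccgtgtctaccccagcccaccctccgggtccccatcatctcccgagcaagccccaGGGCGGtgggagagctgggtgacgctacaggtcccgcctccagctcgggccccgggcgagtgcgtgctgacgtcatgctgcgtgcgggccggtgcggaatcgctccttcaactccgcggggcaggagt
Pdx1, chr5:147269847-147270146 (+ strand): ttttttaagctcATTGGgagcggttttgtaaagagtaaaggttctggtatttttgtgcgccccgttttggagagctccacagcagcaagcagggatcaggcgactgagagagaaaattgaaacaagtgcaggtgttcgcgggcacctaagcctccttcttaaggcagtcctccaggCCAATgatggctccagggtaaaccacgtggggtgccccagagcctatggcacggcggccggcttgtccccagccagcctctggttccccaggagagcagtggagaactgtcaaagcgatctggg
Msx1, chr5:37824536-37824835 (- strand): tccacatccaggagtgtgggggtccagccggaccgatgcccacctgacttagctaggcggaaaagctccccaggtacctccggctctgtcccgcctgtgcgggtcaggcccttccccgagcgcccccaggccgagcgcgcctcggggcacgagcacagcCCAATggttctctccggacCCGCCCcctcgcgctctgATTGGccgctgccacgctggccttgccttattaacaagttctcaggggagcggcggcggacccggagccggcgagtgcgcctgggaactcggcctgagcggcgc
Emx1, chr6:85187681-85187980 (+ strand): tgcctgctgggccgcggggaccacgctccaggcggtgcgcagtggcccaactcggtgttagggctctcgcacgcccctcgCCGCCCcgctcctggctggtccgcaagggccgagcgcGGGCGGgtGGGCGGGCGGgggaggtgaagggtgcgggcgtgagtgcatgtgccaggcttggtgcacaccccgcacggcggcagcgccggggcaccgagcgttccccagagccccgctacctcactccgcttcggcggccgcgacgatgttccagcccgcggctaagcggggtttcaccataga
Six3, chr17:85620584-85620883 (+ strand): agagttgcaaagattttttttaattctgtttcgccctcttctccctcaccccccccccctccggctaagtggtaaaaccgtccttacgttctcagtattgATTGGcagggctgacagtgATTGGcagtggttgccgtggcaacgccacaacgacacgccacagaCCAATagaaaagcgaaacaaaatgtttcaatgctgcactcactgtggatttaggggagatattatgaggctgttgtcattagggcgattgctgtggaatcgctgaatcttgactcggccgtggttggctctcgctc
Vax1, chr19:59170348-59170647 (- strand): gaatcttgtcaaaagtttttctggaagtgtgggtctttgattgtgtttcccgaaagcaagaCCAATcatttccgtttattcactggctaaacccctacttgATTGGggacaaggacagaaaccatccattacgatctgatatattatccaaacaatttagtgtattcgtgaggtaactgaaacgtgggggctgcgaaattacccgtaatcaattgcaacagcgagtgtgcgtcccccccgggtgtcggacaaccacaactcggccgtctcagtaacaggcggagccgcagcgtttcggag

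The window of Isl2, a LIM factor of motor neurons, held 23 CpG dinucleotides, and the best peak on it ranked 13332 and 11397 in wt and 9855 and 10840 in Hox-/-. On the window of Pdx1, the regulator of pancreas formation, with 11 CpG, the ranks were 19927 and 15066 in wt and 17616 and 15475 in Hox-/-. Six3, needed for forebrain and eye, had 14 CpG in its window, Vax1, of the ventral forebrain and optic nerve, had 17, and neither window was touched by a peak in any library. Isl2 ranked better in both Hox-/- libraries, while the genotypes overlapped at Pdx1. TAATTA occurred in 3 of the 36 windows (8.33%, against 4.53% of 21263 promoter windows of protein-coding genes), GGGCGG in 22 (61.1% against 46.2%), CCAAT in 20 (55.6% against 38.2%) and TATAAA in 2 (5.56% against 12.6%).

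The homeobox windows were rich in CpG, yet those rich in CpG were less often covered by a peak than such windows in general. Their median was 25.5 CpG against 13.0 over all windows, and their median GC content was 65.2% against 56.3%. A peak overlapped 25 of the 36 windows (69.4%) in all 4 libraries, against 60.4% of all windows, and a strong peak did so on 13 (36.1%, against 44%). Among windows with at least 15 CpG, a limit set after the data were seen, 21 of 28 homeobox windows (75%) had a peak in all libraries, against 93.0% of 9957 windows. The median rank of those peaks was 38981 at homeobox windows and 14797 over all. Besides Six3 and Vax1, the windows of Barhl2, Nkx2-1, Nkx2-2 and Prrx1 had no peak in any library, although that of Barhl2, a factor of retinal and spinal neurons, held 42 CpG. Across the 25 covered windows CpG number and rank went together weakly at most (Spearman's rho 0.06, Pearson's r with log2 rank 0.05, over windows that share the 4 libraries).

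**Figure D1:**
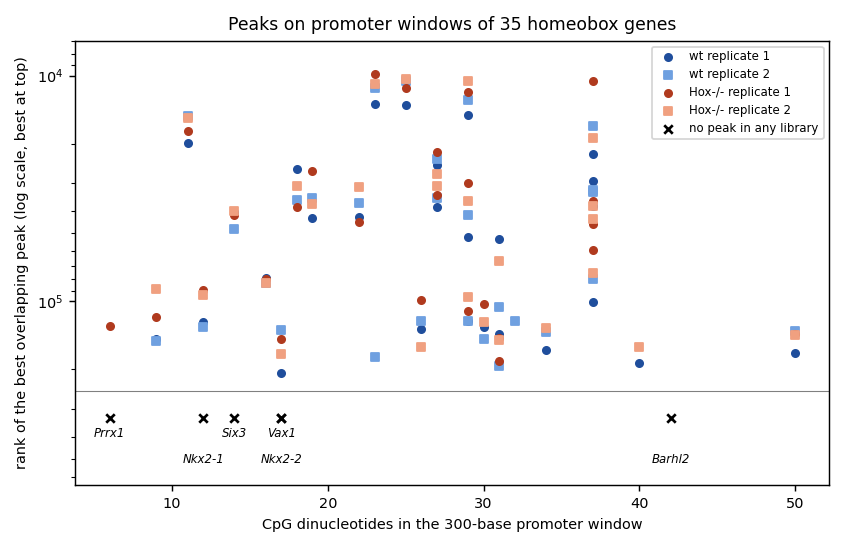
Rank of the best peak overlapping each 300-base promoter window (y axis, log scale, best at the top) against the number of CpG in the window (x axis), for 35 homeobox genes in 4 libraries; colours and shapes are libraries, and crosses below the line are windows with no peak in any library. The 6 windows without a peak span 6 to 42 CpG.

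Nearly all homeobox genes were open at a gene end, more often than protein-coding genes in general. An end peak, with a summit within 1 kb of either annotated end, was listed for 47 and 47 of the 49 genes in wt replicates 1 and 2 and for 44 and 45 in Hox-/- replicates 1 and 2, that is 89.8% to 95.9% against 69.1% to 70.6% of all protein-coding genes. In all 4 libraries together 44 genes (89.8%) had one, against 67.1% of all genes. Among 14043 protein-coding genes in a length range that covers most homeobox genes, 2959 to 55908 bp, the share per library was 73.7% to 75.3%. Genes of this range were not matched in length. The median length was 5918 bp for the homeobox genes and 17169 bp over all protein-coding genes. The mean was 47 ± 0 genes in wt and 44.5 ± 0.707 in Hox-/- (SD, n = 2 each), so that Hox-/- stood at −2.5 relative to wt (two-sided p = 0.33 by exact permutation, the lowest that 2 against 2 can give). With windows of 2.5 kb all 49 genes were called in every library and the difference was 0. It was −1.5 with windows of 500 bp and with lists shortened to 190000 peaks, and −4 at a −log10 q of at least 5.

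The 5 genes not called in all libraries were Six3 and Isl2 (called in none, 4.08%, against 27.1% of all genes), Irx2, Vax1 and Nkx2-1. Irx2 had weak end peaks in wt, ranks 206594 and 188454, and Vax1 had ranks 144135 and 165846 there, while neither had an end peak in Hox-/-. That makes 2 genes (4.08%) called in wt only, against 0.64% of all genes, and 0 called in Hox-/- only, against 0.187%, and both wt-only calls ended with the 2.5 kb windows. The wt end peaks of Vax1 lie in a region that was called in all 4 libraries, with ranks 120014 and 137703 in wt and 85841 and 105396 in Hox-/- (better in Hox-/-), so that its call turns on summit positions. That of Irx2 lies in a region listed in wt only. Nkx2-1, a factor of thyroid, lung and ventral forebrain, lacked an end peak in Hox-/- replicate 1 alone, where the nearest summit lay 1007 bp from an end, just past the limit, and ranked 119005, better than in the other libraries. The nearest summits to an end of Six3 lay 1083 to 1109 bp away. Its RefSeq promoter start lies inside the annotated gene, and the nearest summits to that start lay 2618 to 2782 bp away. For Irx2 and Isl2 the RefSeq promoter start also lies inside the annotated gene, and there both had strong peaks. At that start Irx2, of neural and limb development, ranked 13511 and 10592 in wt and 11339 and 10339 in Hox-/-.

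Although mostly called, the end peaks of homeobox genes were weak. Their median rank was 82057 and 83154 in wt and 60968 and 75240 in Hox-/-. It was 20294 to 21972 over all protein-coding genes and 17992 to 19256 over genes in the length range given above. A strong end peak was present in all libraries at 17 of 49 genes (34.7%, against 47% of all genes). Per library such a peak was present at 34.7% to 40.8% of the 49 genes, against 50.0% to 50.5% of all genes. At 29 genes (59.2%) it was present in no library, a count for which the share over all genes was not taken. Of the 44 genes called in all 4 libraries, 0 fell in the best quartile of the 14696 such genes by mean log2 rank, 5 in the next, 13 in the one after and 26 in the worst. The median homeobox gene ranked better than 15.5% of genes. In each library the homeobox median lay outside the 50000 strong peaks.

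**Figure D2:**
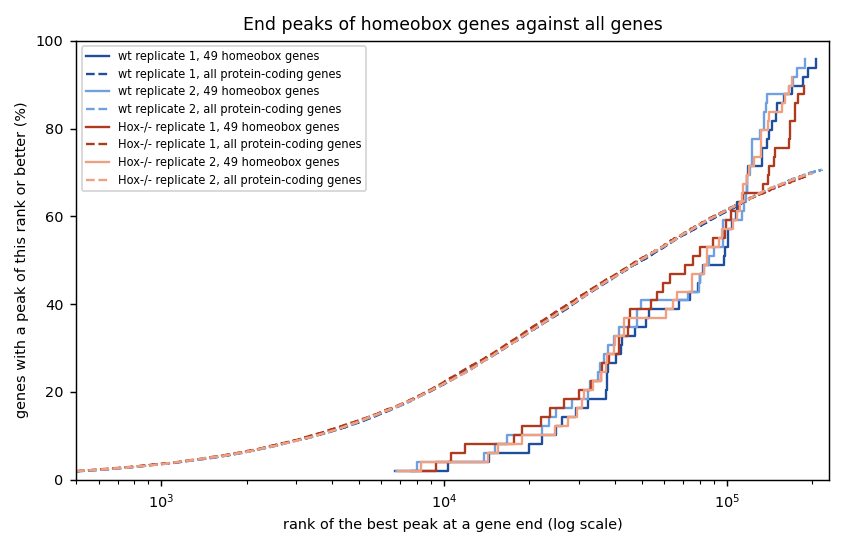
Share of genes (y axis, %) whose best end peak has a given rank or better (x axis, log scale), for the 49 homeobox genes (solid steps) and all protein-coding genes (dashed), 1 colour per library. The homeobox lines lie below the dashed lines at ranks under about 100000 and end above them, at 89.8% to 95.9%.

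The strongest end peak belonged to Nkx6-1, a factor of ventral spinal cord and pancreatic beta cells. It ranked 6722 and 6748 in wt and 7705 and 6864 in Hox-/-, with a fold over background of 14.0 and 14.4 in wt and 13.2 and 14.0 in Hox-/-. Irx4, a marker of the cardiac ventricle, followed with ranks 10302 and 8001 in wt and 9332 and 8248 in Hox-/-. Lhx2, of eye and cortex, had 14451 and 13771 in wt and 11811 and 14250 in Hox-/-. These 3 genes were high in every library, and the genotypes overlapped at Irx4 and Lhx2. The peaks of Irx4 and Lhx2 lay at the gene end away from the RefSeq start. On its promoter window Irx4 ranked 140456 and 106140 in wt and 145969 and 148806 in Hox-/-. Lhx2 had weak or no peaks at its outer start, but 14898 and 12760 in wt and 11794 and 10538 in Hox-/- at its inner start. The Nkx6-1 window held only weak peaks, ranked 188433 in wt replicate 1 and 159598 in Hox-/- replicate 2. Isl1, of motor neurons and heart progenitors, ranked 22187 and 16662 in wt and 10600 and 18846 in Hox-/-, and Pdx1 completed the 5 best with the values given for its promoter window.

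At the other end of the order stood En1, which patterns the midbrain-hindbrain boundary and the limb ectoderm, with ranks 193605 and 176219 in wt and 173203 and 169874 in Hox-/-. Its fold was at most 2.45, and 0.0953% of the genes called in all libraries ranked worse. The region these peaks lie in extends into the gene, where its best peak ranked 148575 and 108958 in wt and 130073 and 111785 in Hox-/-, with the genotypes overlapping. Dlx3, of skin and placenta, ranked 185409 and 116969 in wt and 147562 and 165766 in Hox-/-. Barx1, of stomach and facial mesenchyme, ranked 169142 and 134974 in wt and 139887 and 140678 in Hox-/-. For Dlx4 the ranks were 140353 and 138712 in wt and 167301 and 131687 in Hox-/- (the first of these from a neighbouring region), and for Gsx2, of the ventral telencephalon, 150547 and 134784 in wt and 146950 and 132315 in Hox-/-. Between replicates of 1 genotype these weak peaks moved as far as between genotypes, as at Dlx3 in wt.

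**Figure D3:**
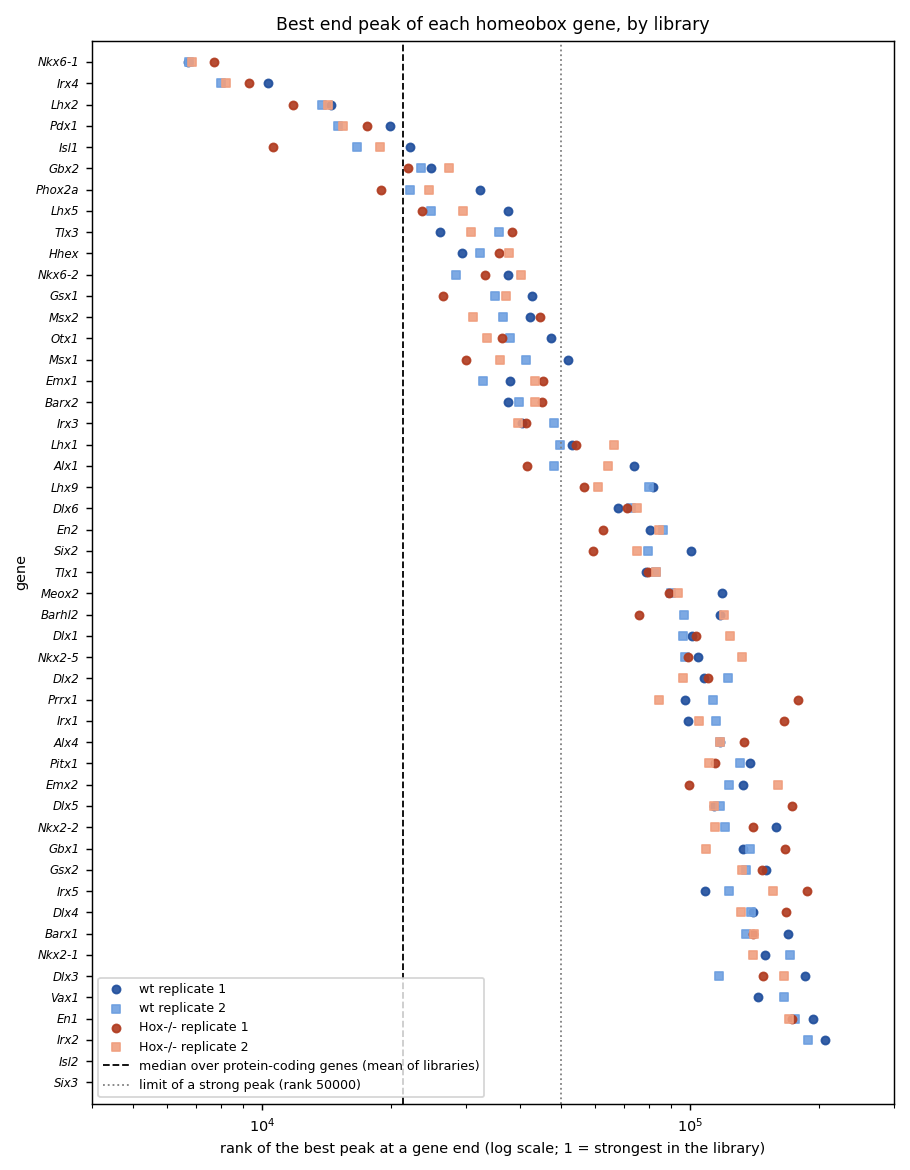
Rank of the best end peak (x axis, log scale, strongest at the left) of each of the 49 homeobox genes (rows) in 4 libraries (colours and shapes). The dashed line is the median over protein-coding genes and the dotted line the limit of a strong peak; 5 genes, led by Nkx6-1 and Irx4, have a library mean left of the dashed line, and Isl2 and Six3 have no end peak.

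Besides the 5 best, 12 genes had a strong end peak in all libraries: Nkx6-2, Lhx5, Emx1, Otx1, Msx2, Gbx2, Irx3, Barx2, Gsx1, Phox2a, Hhex and Tlx3. Phox2a, of autonomic neurons, was the best of them, with ranks 32254 and 22166 in wt and 18905 and 24583 in Hox-/-. These peaks lay at the gene end away from its RefSeq start. Its promoter window ranked 130243 and 146945 in wt and 103088 and 124031 in Hox-/-. Gbx2, which patterns the anterior hindbrain and is also known as a pluripotency factor in naive mouse stem cells, ranked 24856 and 23500 in wt and 21901 and 27383 in Hox-/-. Tlx3, a selector of excitatory spinal neurons, ranked 25979 and 35662 in wt and 38332 and 30764 in Hox-/-. Gsx1, of ventral forebrain progenitors, ranked 42600 and 34952 in wt and 26484 and 37192 in Hox-/-. Genotypes overlapped at all 4 of these genes. Msx1 was strong in 3 libraries, as wt replicate 1 lay just past the limit.

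The middle and lower part of the order held the heart gene Nkx2-5, with ranks 104033 and 97029 in wt and 98639 and 132034 in Hox-/-. Nkx2-2, of ventral spinal cord and pancreas, ranked 158441 and 120832 in wt and 140531 and 114242 in Hox-/-. Its RefSeq promoter start lies inside the annotated gene, away from these peaks. The nearest summits to that start, 987 to 1011 bp away, ranked 93093 and 108641 in wt and 76045 and 92431 in Hox-/-. At Prrx1, of limb mesenchyme, the end region ranked 97230 and 113213 in wt and 95403 and 84713 in Hox-/- (0.22, better in Hox-/-). In Hox-/- replicate 1 its summit lay past the 1 kb limit, and a peak of another region, rank 178134, stood in as the best end peak. Emx2, of cortex and urogenital tract, ranked 133147 and 122925 in wt and 99104 and 160007 in Hox-/-, with the Hox-/- libraries at both extremes. Alx1, of the face, was stronger, with 74058 and 48067 in wt and 41616 and 64411 in Hox-/-, whereas Alx4, of face and limb, had 117529 and 117584 in wt and 133799 and 117564 in Hox-/-. Meox2, of muscle precursors, ranked 118959 and 90056 in wt and 89151 and 93619 in Hox-/-.

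By class, LIM genes had the best end peaks and the NKL subclass the weakest. The median rank over genes called in all 4 libraries was 30555 in wt and 26374 in Hox-/- for 5 LIM genes, and 90624 and 88158 for 22 NKL genes. It was 63197 and 53546 for the 6 HOXL genes, 79119 and 76265 for the 6 PRD genes and 68444 and 73043 for 4 TALE genes. Strong end peaks in all libraries, present at 47% of all genes, were found at 3 of 6 LIM (50%), 3 of 6 HOXL (50%), 7 of 24 NKL (29.2%), 2 of 6 PRD (33.3%), 2 of 5 TALE (40%) and 0 of 2 SINE genes. These medians rest on few genes, and no test was run between classes.

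Over the whole loci the homeobox genes held many peaks, of which most lay away from gene ends, as did most regions at gene loci in general. The 49 loci contained 413 and 421 listed peaks in wt and 377 and 397 in Hox-/-, or 19.3 and 19.4 per 10000 peaks in wt and 19.7 and 19.8 in Hox-/-. The mean was 19.4 ± 0.0662 in wt and 19.7 ± 0.115 in Hox-/- (SD, n = 2 each), higher by 0.375 in Hox-/- (two-sided p = 0.33 by exact permutation), which turned to −0.393 when only peaks with a −log10 q of at least 5 were kept. It was 1.32 with all lists shortened to 190000 peaks and 0.597 with overlapping lines merged, so its size and sign depend on these choices. Per gene the median was 9 peaks in both wt lists and 8 in both Hox-/- lists, against 6 or 7 over all protein-coding genes. More peaks per 100000 listed were found in both Hox-/- libraries at 13 genes (26.5%, against 24.4% of all genes with a peak) and in both wt libraries at 8 (16.3%, against 15.6%), shares near the background. With flanks of 25 kb the order turned, to 8 (16.3%, against 23.6%) and 10 (20.4%, against 15.5%), and likewise at a −log10 q of at least 5, to 7 (14.3%, against 25.4%) and 10 (20.4%, against 15.9%).

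Peaks of the 4 libraries that overlapped were merged into regions, 355 of them at homeobox loci. Of these, 88 (24.8%) had their best summit within 1 kb of an end of the homeobox gene itself, 7 (1.97%) at an end of another gene, and 260 (73.2%) at neither. Regions were called in all 4 libraries in 224 cases (63.1%, against 59% of all 208141 regions). Of these 224, 155 lay away from all gene ends, a smaller share than at gene loci in general (69980 of 86458). Gbx1 and Lhx2 had the most regions, 13 each, followed by Gbx2 and Lhx9 with 12 and En2 with 11. Of these 5 genes, Lhx2 and Gbx2 had strong end peaks in all libraries, and Gbx1, Lhx9 and En2 in none. Gbx1 ranked 132758 and 137600 at its ends in wt and 166411 and 108742 in Hox-/-, and En2 ranked 80375 and 86322 in wt and 62606 and 84596 in Hox-/-.

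A strong peak anywhere in the locus was present at 35 genes in each wt library and at 37 and 36 genes in Hox-/- replicates 1 and 2. That is 71.4% to 75.5% of the genes, against 74.7% to 74.8% of all genes and 79.1% to 79.3% of genes in the length range given above. The homeobox share was below that of this range in each library. As the range was not matched in length, this is no comparison at equal length. The difference of 1.5 genes (mean 35 ± 0 in wt and 36.5 ± 0.707 in Hox-/-, SD, n = 2 each, two-sided p = 0.33 by exact permutation) became −1 when peaks were ranked by fold and 4.5 with flanks of 25 kb. In all 4 libraries 33 genes had one (67.3%, against 72.1%). In no library was one found at 10 genes, a count for which the share over all genes was not taken: Dlx2, Nkx2-5, Six3, Pitx1, En1, Barx1, Prrx1, Alx4, Meox2 and Barhl2. Some loci with weak gene ends held strong peaks elsewhere. A region 1.55 kb outside Irx5, itself weak at its ends, was the strongest of all, with ranks 1804 and 2988 in wt and 3758 and 2396 in Hox-/-. Near Vax1 a region 10.2 kb from the gene ranked 7713 and 7880 in wt and 6082 and 9151 in Hox-/-. Both regions, singled out after their values were seen, were open in all libraries with overlapping genotypes.

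At gene ends the genotypes were mostly not separated. Of the 44 genes with an end peak in all 4 libraries, 6 (13.6%, against 20% of 14696 genes) ranked better in both Hox-/- libraries than in both wt libraries, and 7 (15.9%, against 17%) the reverse. With log2 shifts counted as wt minus Hox-/-, so that a positive value means a better rank in Hox-/-, the median was 0.04 over these genes and 0.02 over all. Neither share lies above the background. Ranking by fold gave 12 (27.3%, against 26.7%) better in Hox-/- and 3 (6.82%, against 12.7%) better in wt. Windows of 2.5 kb gave 12 (24.5%, against 20.1%) and 6 (12.2%, against 17.3%) of 49 genes, so the order turned with both choices. With 2 libraries a genotype the exact permutation test of a single gene cannot pass 0.05, and no other test of single genes was run. At RefSeq starts alone, which were known for fewer genes and can lie inside the annotated gene, 10 of 30 genes (33.3%, against 20.1%) ranked better in Hox-/- and 4 (13.3%, against 17.2%) in wt. The best end peak can also be a different peak in different libraries. It lay in 1 region in all 4 libraries at 36 of the 44 genes (81.8%, against 95.1% of all genes). Of these 36, 5 (13.9%, against 20%) ranked better in Hox-/- and 6 (16.7%, against 17%) in wt, a count added after the data were seen. The exceptions were Dlx2, Dlx4, Dlx6, Irx1, Irx3, Irx5, Pitx1 and Prrx1.

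Among genes ranked better in Hox-/-, Msx1, of face and tooth development, had the largest shift, 0.50, with ranks 51782 and 41446 in wt and 29982 and 35884 in Hox-/-; its promoter sequence is printed above. Lhx9, of the gonad, shifted by 0.47, from 82057 and 80329 in wt to 56609 and 61060 in Hox-/-, but by −0.04 at the RefSeq start alone. Six2, of nephron progenitors, ranked 100626 and 79792 in wt and 59330 and 75142 in Hox-/- (shift 0.42). Otx1, of the forebrain, ranked 47226 and 37992 in wt against 36254 and 33521 (0.28). En1 had a shift of 0.11, and with windows of 2.5 kb its genotypes overlapped (0.08).

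Pitx1, which specifies the hindlimb, counted among these 6 genes with a shift of 0.26, but its wt and Hox-/- values came from opposite ends. At the lower-coordinate end the region ranked 149642 and 150103 in wt and 114057 and 110652 in Hox-/- (0.42). At the higher-coordinate end 1 region ranked 138178 and 130702 in wt and 146199 and 159200 in Hox-/- (−0.18), and its neighbour 140990 and 137532 in wt and 145834 and 161017 in Hox-/- (−0.14). The ends of Pitx1 thus went in opposite directions, and the value for the gene describes neither.

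Among genes ranked better in wt, Irx5, of retina and heart, had ranks 108398 and 122945 in wt and 187397 and 156341 in Hox-/-, a shift of −0.57 drawn from both ends, and with windows of 2.5 kb the genotypes overlapped (−0.37). The region at its lower-coordinate end alone ranked 108398 and 141070 in wt and 187397 and 181303 in Hox-/- (−0.58), but ranked by fold its genotypes overlapped and the shift was −0.03. Emx1, of the dorsal telencephalon, ranked 38003 and 32774 in wt and 45258 and 43363 in Hox-/- (−0.33); ranked by fold the genotypes overlapped (−0.16). Hhex, of anterior endoderm and liver, ranked 29288 and 32279 in wt and 35773 and 37723 in Hox-/- (−0.26). Lhx1, of kidney and head organizer, ranked 52991 and 49543 in wt and 53981 and 66406 in Hox-/-, a shift of −0.22 that turned to 1.57 with windows of 500 bp; ranked by fold the genotypes overlapped (−0.14). Dlx1, of forebrain interneurons, ranked 100831 and 96414 in wt and 102992 and 124106 in Hox-/- (−0.20), which turned to 0.18 with windows of 2.5 kb and at the RefSeq start. Barx2 (−0.19) and Nkx6-1 (−0.11) complete the list, and both overlapped when ranked by fold. Nkx6-1 turned to 0.32 with windows of 500 bp.

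Regions found in 1 genotype only were few and weak. Of the 355 regions, 8 (2.25%, against 3.84% of all regions) were called in both wt and neither Hox-/- library, and 7 (1.97%, against 1.23%) in both Hox-/- and neither wt library. None was strong in its 2 libraries, where the background was 0.0115% for wt and 0% for Hox-/-. The wt-only regions lay at Phox2a (2 regions), En1, Irx2, Tlx1, Msx1, Barhl2 and Nkx6-2, and the Hox-/- only regions at Emx1 (2 regions), Lhx9, Nkx2-1, Nkx6-2, Barx2 and Isl2. Nkx6-2 had 1 of each kind. Ranks ran from 109101 to 206594 in the wt-only and from 93965 to 186110 in the Hox-/- only regions. The wt-only region with the highest fold, 6.52 kb outside Phox2a (chr7:101811668-101811951), ranked 142201 and 157009 with a fold of 4.02 and 3.74. That in Hox-/-, 7.49 kb outside Nkx2-1 (chr12:56544292-56544586), ranked 109678 and 105956 with a fold of 4.90 in both. The counts changed with the peaks kept. At a −log10 q of at least 5 they were 14 wt-only (4.46%, against 4.42%) and 3 Hox-/- only regions (0.955%, against 1%). With lists shortened to 190000 peaks they were 7 (2.07%, against 2.72%) and 12 (3.55%, against 2%). Absence from a list depends on depth, and the Hox-/- lists were shorter.

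Away from gene ends, regions at homeobox loci ranked better in Hox-/- more often than in wt. Over the 224 regions called in all 4 libraries, the median shift was 0.08, against 0.02 over 122749 regions genome-wide. Of them 59 (26.3%, against 21.5%) ranked better in both Hox-/- libraries and 26 (11.6%, against 19.6%) in both wt libraries. At the homeobox genes' own ends the counts were 13 and 13 of 66, or 19.7% each, against 20.7% and 16.8% at gene ends in general. At the 155 regions away from all gene ends they were 46 (29.7%) and 12 (7.74%), against 21.3% and 20.2% of 69980 such regions at gene loci, and the median shift was 0.10 against 0.01. With flanks of 25 kb that median fell to 0.0645, and over all homeobox regions it was 0.0544. Regions of 1 locus are neighbours and not independent, and this split by position was made after the data were seen.

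The shift was small, and the lowest value across genotypes lay close to that between the wt replicates. The median log2 rank of the 224 regions in wt minus Hox-/- was 0.07 to 0.13 in the 4 pairs across genotypes, against 0.05 between the wt and 0.03 between the Hox-/- replicates. Genome-wide the cross pairs gave 0.01 or 0.02. Hox-/- replicate 1 had the shortest list. Without it the median was 0.119 away from gene ends and 0.0867 over all homeobox regions. Without wt replicate 1 these medians were 0.111 and 0.0545. Away from gene ends, ranking by fold gave 55 of 157 regions (35%, against 22.6%) better in Hox-/- and 14 (8.92%, against 18.5%) better in wt. In the middle range of ranks of homeobox regions, 47312 to 126868, 31 of 112 (27.7%, against 20.8% of all regions in that range) were better in Hox-/- and 12 (10.7%, against 20.3%) in wt. A shift in absolute size above 0.5 was seen at 22 regions (9.82%, against 13.1% of all), while a difference of that size between replicates was seen at 11.6% of the 224 regions in wt and 22.3% in Hox-/-. The part of depth in these shifts was not tested.

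**Figure D4:**
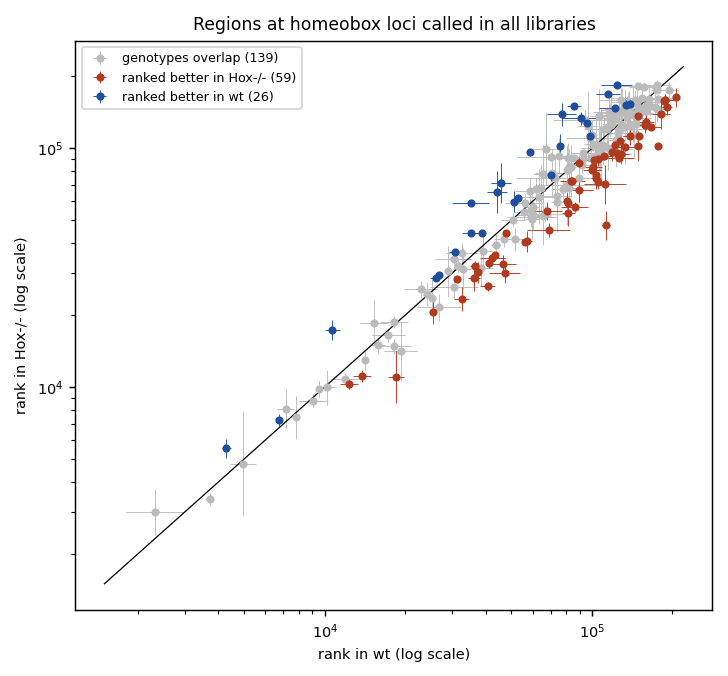
Rank in wt (x axis) and in Hox-/- (y axis), both log scale, of the 224 regions at homeobox loci called in all 4 libraries; points are geometric means of 2 libraries and bars run to both libraries. Below the line a region ranks better in Hox-/-: 59 regions are fully separated that way and 26 the other way.

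By class, regions better in Hox-/- and better in wt, where the shares over all regions were 21.5% and 19.6%, numbered 11 (33.3%) and 2 (6.06%) of 33 in LIM loci and 9 (39.1%) and 3 (13%) of 23 in PRD loci. They numbered 27 (25%) and 13 (12%) of 108 in NKL loci and 6 (23.1%) and 5 (19.2%) of 26 in HOXL loci. Only the HOXL shares lay near both shares over all regions. In SINE loci there were 3 (27.3%) and 0 of 11, and in TALE loci 3 (13%) and 3 (13%) of 23. The median shift was 0.20 in LIM and in PRD loci and 0.01 in TALE loci. At 35 of 49 genes (71.4%, against 52.7% of 18507 genes with such a region) the median of the locus was above 0. Differences between classes were not tested.

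The region that shifted furthest towards Hox-/- lay 4.54 kb beyond the higher-coordinate end of En2, a gene of the midbrain-hindbrain and cerebellum, at chr5:28176533-28176908. It ranked 117046 and 109347 in wt and 54797 and 41315 in Hox-/-, a shift of 1.25 that 0.13% of all regions reach. The libraries of the genotypes lay far apart there, while the other 7 regions of the locus called in all libraries shifted by −0.38 to 0.31, and 53 regions within 500 kb around the locus had a median of −0.02. Lhx5, of the forebrain and hippocampus, had 3 of 6 regions better in Hox-/- and 0 better in wt. One of them, 6.62 kb outside the gene at chr5:120447400-120448222, ranked 175576 and 178111 in wt and 103153 and 100763 in Hox-/- (shift 0.79). A region 6.33 kb outside Tlx1, which is required for the spleen, ranked 19766 and 17215 in wt and 8565 and 14188 in Hox-/- (0.74). These regions, like those in the next paragraph, were chosen for their shifts.

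In the other direction, Gbx1, of the developing spinal cord, had a strong region 3.41 kb beyond its higher-coordinate end (chr5:24529883-24530652) that ranked 11397 and 10033 in wt and 19159 and 15784 in Hox-/-, a shift of −0.70. Within the gene another strong region ranked 16851 and 14798 in wt and 16116 and 13883 in Hox-/-, with both genotypes overlapping. A region 9.26 kb outside Msx2, of bone and skin appendages, ranked 91111 and 80454 in wt and 155246 and 146482 in Hox-/- (−0.82). The lowest shift of all, −0.85, was found between Dlx3 and Dlx4 at chr11:95133245-95133902, with ranks 87309 and 67843 in wt and 155246 and 124143 in Hox-/-; 0.901% of all regions shifted as far or further that way.

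**Figure D5:**
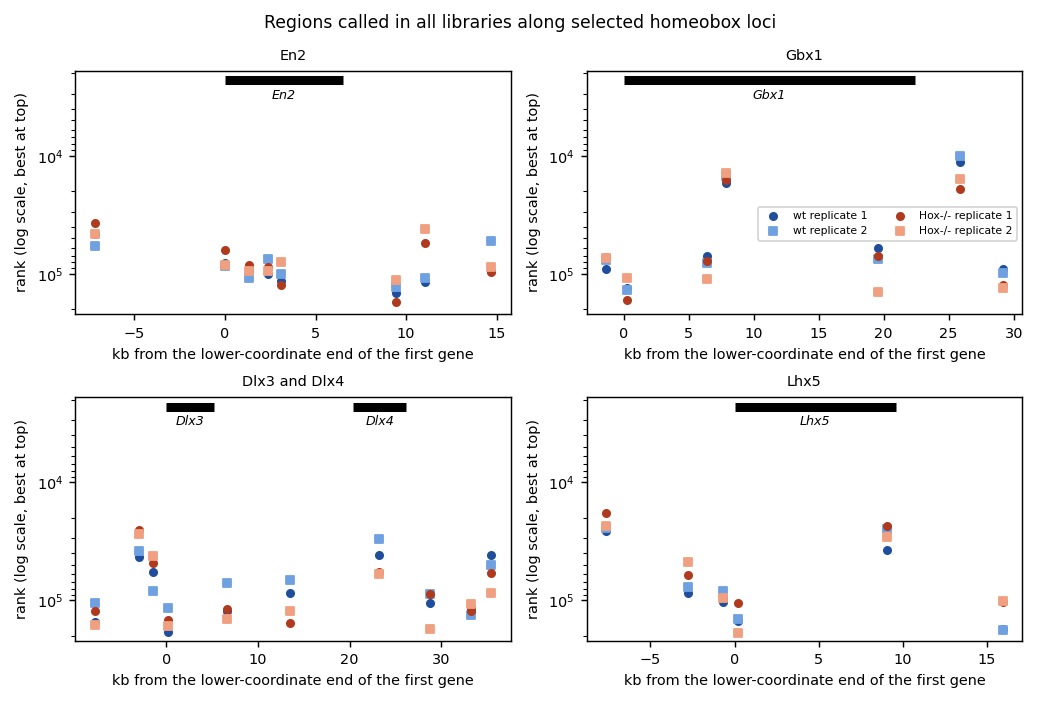
Rank (y axis, log scale, best at the top) of each region called in all 4 libraries along the loci of En2, Gbx1, Dlx3 with Dlx4, and Lhx5, against its distance in kb from the lower-coordinate end of the first gene (x axis). Black bars are gene bodies and colours and shapes are libraries; the En2 region near 11 kb is higher in both Hox-/- libraries, and the Gbx1 region near 26 kb is higher in both wt libraries.

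Linked genes were compared next, since Dlx genes lie in pairs and Irx genes in looser groups. Dlx1 and Dlx2 (gap 9.43 kb, chromosome 2) share 4 regions, Dlx5 and Dlx6 (9.83 kb, chromosome 6) share 2, and Dlx3 and Dlx4 (15.2 kb, chromosome 11) share 1. The median shift was 0.18 over 9 regions at Dlx1 and Dlx2 and 0.21 over 8 at Dlx5 and Dlx6, both pairs acting in forebrain interneurons. At Dlx3 and Dlx4 it was −0.25 over 10 regions. The end peaks of Dlx5 ranked 113474 and 117477 in wt and 173369 and 113365 in Hox-/-. Dlx2 and Dlx6 each had a pair of end regions. At Dlx2 the region at the higher-coordinate end ranked 122405 and 122497 in wt and 110251 and 96035 in Hox-/- (0.25, better in Hox-/-), and at the other end the genotypes overlapped (−0.16). At Dlx6 the region just inside the gene's lower-coordinate end ranked 94530 and 75692 in wt and 71268 and 75240 in Hox-/- (0.21), and its neighbour outside the gene 67788 and 72713 in wt and 73287 and 81094 in Hox-/- (−0.13). Inside the pair of Dlx3 and Dlx4 the direction of regions was mixed. Dlx3 had 2 neighbouring regions ranked better in Hox-/-, the stronger with 43352 and 38167 in wt and 25359 and 27532 in Hox-/- (0.62), while Dlx4 had 3 ranked better in wt. The region in the body of Dlx4 ranked 41304 and 30063 in wt and 57649 and 60575 in Hox-/- (−0.75), so it counted as strong in wt only. Irx1, Irx2 and Irx4, separated by 661 and 625 kb, had a median shift of 0.00 over 16 regions, and Irx3 and Irx5 (556 kb apart) one of 0.08 over 7. The main end region of Irx1 ranked 98623 and 114843 in wt and 177973 and 104676 in Hox-/-, with the genotypes overlapping. Irx3 had neighbouring end regions that went in opposite directions. That reaching into the gene ranked 57217 and 55006 in wt and 41388 and 39707 in Hox-/- (0.47), and that outside it 40401 and 47958 in wt and 80741 and 53479 in Hox-/- (−0.58). In the body of Irx1 a region ranked 55063 and 59623 in wt and 36711 and 45159 in Hox-/- (0.49) and counted as strong in Hox-/- only.

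Some homeobox genes lie on the chromosomes of the Hox clusters. The nearest were Dlx4 and Dlx3, 1.05 and 1.07 Mb from HoxB, and Dlx2 and Dlx1, 3.12 and 3.13 Mb from HoxD. The others on these chromosomes lay 11.7 Mb (Lhx1) or more away. Within 500 kb around the loci of Dlx3 and Dlx4 the median shift was −0.04 and −0.02, each over 136 regions, and around Dlx1 and Dlx2 it was 0.04 over 119 and 114 regions.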

How the data were processed

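The deposited data are 1 peak list per library, so replicates were not pooled. The submitters' processing notes name build mm10 and cutadapt 4.8, Bowtie2 2.5.0, Picard 2.18.2, bedtools 2.30.0, MACS2 2.2.9.1 and deepTools 3.5.4, with no role or order. The treatment of duplicates, mitochondrial reads and transposase shift is not given in the sources used here. Per the labels, libraries were amplified for 12 cycles. The deposited lists give each peak's fold over background at its summit and its −log10 p and −log10 q as the authors' peak caller made them, and these were used only within a list. The lowest deposited −log10 q was 1.30 in each library.

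Peaks were ranked within each library, those overlapping by at least 1 bp were merged into regions, and both were assigned to genes of a RefSeq table of GRCm38.p6, which gives no strand, so both ends of a gene were used (Python 3.11.15, pandas 2.3.3, numpy 2.4.6). Coordinates are 1-based. A region or gene is separated when both libraries of 1 genotype rank better than both of the other, and the main counts are read against the share over all features. Exact permutation tests over libraries cannot go below p = 0.33. The calculations were tested on simulated data. Genes given with every value are those not called, the 5 best and 5 worst, the 5 with the largest separated shifts each way, those with most regions, linked genes and regions called in 1 genotype; the latter are partly given as a range, and others were chosen after their values were seen. The 49 genes, the lists and the rules were chosen with earlier results of these data known. The marker and class lists are given in full only as counts. Alternatives to ranking, windows, flanks, list length and libraries used are given in the closing section.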

Additional observations from a re-analysis of the deposited data

How the results depend on the processing

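Ranking by fold gave −1 for the difference in genes with a strong locus peak (4.5 with flanks of 25 kb), and 12 (27.3%, against 26.7% of all genes) and 3 (6.82%, against 12.7%) of 44 genes with better end ranks in Hox-/- and in wt. With flanks of 5 kb there were 4 wt-only regions (1.47%, against 3.84%), and 17 regions (9.66%, against 19.6%), 4 of them away from gene ends (3.67%, against 20.3%), ranked better in wt. With 25 kb there were 14 wt-only (2.88%) and 11 Hox-/- only regions (2.26%, against 1.23%), 40 (13.2%) and 25 (10.9%, against 20.1%) ranked better in wt, and 8 of 49 genes (16.3%, against 23.6%) had more peaks in Hox-/- and 10 (20.4%, against 15.5%) in wt, the reverse of the main order; the median shift was 0.0544 over all homeobox regions and 0.0645 away from gene ends. With summits within 2.5 kb the difference in genes with an end peak was 0 and 12 of 49 genes (24.5%, against 20.1%) ranked better in Hox-/-. At gene starts alone 10 of 30 (33.3%, against 20.1%) did so and 4 (13.3%, against 17.2%) ranked better in wt, over a smaller set of genes than in the main count. At −log10 q of at least 5 the density difference was −0.393, with 14 wt-only (4.46%, against 4.42%) and 3 Hox-/- only regions (0.955%, against 1%) and 7 genes with more peaks in Hox-/- (14.3%, against 25.4%) and 10 in wt (20.4%, against 15.9%), again reversed; the difference in genes with an end peak was −4. Lists shortened to 190000 peaks gave a density difference of 1.32 (0.597 with lines merged), an end peak difference of −1.5 (also with 500 bp windows), 12 Hox-/- only regions (3.55%, against 2%) and 5 genes with more peaks in wt (10.2%, against 11.8%) and 11 in Hox-/- (22.4%, against 14.2%), merging lines also gave 5 (10.2%, against 14.1%) and 11 (22.4%, against 30.2%), and a 50% cover rule gave 1 strong Hox-/- only region (0.00528% of all regions). Single end shifts that turned were Lhx1 (1.57) and Nkx6-1 (0.32) with 500 bp windows, Dlx1 (0.18) with 2.5 kb and at the start, and Lhx9 (−0.04) at the start. Ranked by fold, the genotypes overlapped at the ends of Emx1, Lhx1, Barx2 and Nkx6-1 and at the Irx5 region (−0.03). Wider or narrower windows and shorter lists change counts by construction; otherwise the cause was not tested.

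The replicate numbers showed no shared effect on rank: over 122749 regions, replicate 1 minus replicate 2 in wt and in Hox-/- correlated at 0.00367 (log2 rank). This cannot tell whether same-numbered libraries were prepared together. With the replicate block, in which same-numbered libraries are compared, 23 regions away from gene ends ranked better in wt (14.8%, against 27.4% of all) and 57 in Hox-/- (36.8%, against 29.4%); it moved no other count by over 1.5 times, and the density difference stayed 0.375.

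Leaving out 1 library makes separation easier, so counts and the shares over all regions or genes rise together. Across the 4 such fits the density difference ranged from 0.293 to 0.456, the difference in genes with an end peak from −3 to −2 and with a strong peak from 1 to 2. Regions called only in wt ranged from 17 to 30 (4.91% to 8.67%, against 6.83% to 10.3%) and only in Hox-/- from 13 to 23 (3.72% to 6.65%, against 2.9% to 5.88%). Regions ranked better in Hox-/- ranged from 90 to 110 (39% to 46.1%, against 36.2% to 37.8%) and in wt from 55 to 64 (23.8% to 27.6%, against 32.5% to 34.9%), with a median shift of 0.0545 to 0.113. Without wt replicate 1 the Hox-/- share, 39% against 36.7%, lay near the background. Away from gene ends the ranges were 71 to 83 (44.5% to 49.4%, against 35.8% to 37.7%), 30 to 41 (18.9% to 25%, against 33% to 35.7%) and 0.111 to 0.123. Genes with better end ranks ranged from 10 to 19 in Hox-/- (22.7% to 43.2%, against 33.8% to 39%) and 12 to 15 in wt (27.3% to 34.1%, against 30.4% to 34.4%), and genes with more peaks from 19 to 22 (38.8% to 44.9%, against 39% to 40.7%) and 13 to 17 (26.5% to 34.7%, against 29.2% to 30.7%). The alternatives for regions away from gene ends and the count of end peaks from 1 region were chosen after seeing the data. Depth limits all absences from a list.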

Other observations

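A list of 61 other homeobox genes outside the Hox clusters, of which 60 were found, was counted the same way. End peaks were called in all 4 libraries at 54 of them (90%, against 89.8% of the 49 genes and 67.1% of all genes) and strong ones at 22 (36.7%, against 34.7% and 47%). Frequent but often weak end peaks are thus not particular to the 49 genes. Their median end rank was 53566 in wt and 58873 in Hox-/-, between the 49 genes of the report and protein-coding genes in general. End ranks were better in both Hox-/- libraries at 15 of the 54 (27.8%) and better in both wt libraries at 3 (5.56%), where the shares over all genes were 20% and 17%. Over their 314 regions called in all libraries the counts were 61 (19.4%) and 51 (16.2%), with a median shift of 0.06, against 21.5% and 19.6% of all regions. The difference from the 49 genes was not tested.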
